A study of Mus musculus with 12 samples.

Results

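Bmi1 and 8 mouse counterparts of genes from the human chromosome band 10p12 (Commd3, Dnajc1, Pip4k2a, Mllt10, Msrb2, Armc3, Skida1 and Spag6) were described across normal marrow and 3 leukemias. The 9 genes were taken from a named list, which was chosen with earlier results of these data known. All 9 were among the 35976 genes in the count table. RNA came from FACS-sorted CD45.2+ bone marrow cells of the C57BL/6 strain, read as polyadenylated RNA with a stranded library kit, with 3 libraries in each of 4 groups. The groups were normal marrow (WT, genotype CD45.2(+) with no fusion) and 3 leukemias, named BN1 for the fusion BRD9-NUTM1, MA9 for MLL-AF9 and ME for MLL-ENL. The CD45.2 allele is shared by all 4 groups. The sources used here do not give age, sex, the promoter driving each fusion or the way it was introduced, nor whether the 3 libraries per group are from different mice. The p-values therefore measure the spread between these libraries, which may be technical.

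Bmi1 encodes a RING finger subunit (also called Pcgf4) of Polycomb repressive complex 1, which adds ubiquitin to histone H2A and keeps target genes silent. In blood, Bmi1 is known for sustaining the self-renewal of stem cells and of leukemic cells, and its best studied target is Cdkn2a, the gene of the cell cycle inhibitors p16Ink4a and p19Arf. In human infant leukemias with a NUTM1 fusion, raised expression of BMI1 and its neighbours at 10p12 has been described. The comparison asks how the mouse counterparts stand in BN1, beside normal marrow and beside the MLL fusions. The cell lineage of BN1 was not matched to that of the human leukemias. BN1 libraries held 5.10 to 6.16 CPM summed over B cell marker genes and 21286 to 21912 CPM over primary granule genes. Among the other genes, Commd3 encodes a COMM domain protein of an endosomal sorting complex, Dnajc1 a J domain co-chaperone of the endoplasmic reticulum, and Pip4k2a a kinase of phosphatidylinositol 5-phosphate. Mllt10 (AF10) encodes a cofactor of the histone H3 lysine 79 methyltransferase Dot1l and is itself an MLL fusion partner. Msrb2 encodes a mitochondrial methionine sulfoxide reductase, Armc3 and Spag6 armadillo repeat proteins found in cells with motile cilia or flagella, and Skida1 a Ski/Dach domain protein.

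In the mouse the 9 genes lie on chromosome 2 within 1351 kb, from 18044087 to 19394976 in GRCm38.p6 (the mm10 build), in the order Skida1, Mllt10, Dnajc1, Commd3, Bmi1, Spag6, Pip4k2a, Armc3, Msrb2. Bmi1 (chr2:18677018-18686629, plus strand) starts 786 bases after the end of Commd3 (chr2:18672435-18676231) on the same strand, and Spag6 (chr2:18694011-18749746) follows 7381 bases after the end of Bmi1. Dnajc1 (chr2:18205634-18394099, minus strand) and Mllt10 (chr2:18055160-18212390, plus strand) share 6757 bases at their 3′ ends on opposite strands. The sources used here do not say whether the authors' counting used the strand, so reads from that shared stretch could not be assigned with certainty and the levels of these 2 genes are uncertain to that extent. Pip4k2a (chr2:18842255-18998291) lies on the minus strand, and Skida1 (chr2:18044087-18048449) also. Armc3 (chr2:19198865-19310243) and Msrb2 (chr2:19371436-19394976) are on the plus strand.

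The promoter sequences of the 4 genes that changed in all 3 leukemias are shown first. Each window is from RefSeq (GRCm38.p6), 5′ to 3′ on the gene's strand, from 250 bases before to 50 bases after the transcript start, counted with the start as base 1 and no base 0. The windows are chr2:18676768-18677067 for Bmi1, chr2:18672185-18672484 for Commd3, chr2:18392781-18393080 for Dnajc1 (inside the annotated span of the gene, whose outermost start lies upstream) and chr2:18998072-18998371 for Pip4k2a. Capitals mark exact matches on either strand to 5 motifs: CACGTG (an E-box, the same on both strands), CCGGAAG (an ETS site), GGGCGG (a GC box), CCAAT and TATAAA. No match of one motif overlaps a match of another in these 4 windows, although neighbouring GC boxes share bases.
Bmi1: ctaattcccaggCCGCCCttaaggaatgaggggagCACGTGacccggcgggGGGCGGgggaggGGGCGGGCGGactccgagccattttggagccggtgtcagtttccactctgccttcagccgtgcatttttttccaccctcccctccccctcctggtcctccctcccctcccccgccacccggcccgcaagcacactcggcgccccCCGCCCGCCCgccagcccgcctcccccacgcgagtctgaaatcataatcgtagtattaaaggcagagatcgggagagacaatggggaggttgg
Commd3: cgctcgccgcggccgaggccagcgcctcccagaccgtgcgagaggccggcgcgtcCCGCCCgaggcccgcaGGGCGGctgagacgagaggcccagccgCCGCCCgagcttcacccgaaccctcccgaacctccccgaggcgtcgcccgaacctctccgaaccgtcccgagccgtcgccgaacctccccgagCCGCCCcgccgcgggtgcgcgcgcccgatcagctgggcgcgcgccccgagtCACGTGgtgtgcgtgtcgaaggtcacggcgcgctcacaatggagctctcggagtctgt
Dnajc1: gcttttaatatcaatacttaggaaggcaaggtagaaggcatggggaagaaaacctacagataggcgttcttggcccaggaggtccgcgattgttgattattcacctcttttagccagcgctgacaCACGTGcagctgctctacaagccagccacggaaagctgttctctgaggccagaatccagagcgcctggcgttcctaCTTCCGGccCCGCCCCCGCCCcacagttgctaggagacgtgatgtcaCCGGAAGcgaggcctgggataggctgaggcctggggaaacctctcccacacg
Pip4k2a: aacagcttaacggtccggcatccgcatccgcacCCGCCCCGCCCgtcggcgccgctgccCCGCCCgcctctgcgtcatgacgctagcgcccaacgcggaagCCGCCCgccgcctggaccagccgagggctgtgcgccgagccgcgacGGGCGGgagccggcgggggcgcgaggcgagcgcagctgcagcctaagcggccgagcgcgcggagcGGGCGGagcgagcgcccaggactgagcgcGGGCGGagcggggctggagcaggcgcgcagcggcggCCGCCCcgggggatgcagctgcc

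CACGTG, the E-box read by Myc, Max, Usf and related factors, was present once in each window of Bmi1 (bases -215 to -210), Commd3 (-8 to -3) and Dnajc1 (-125 to -120). It was in no other window among the 10 that RefSeq gives for 8 of the 9 genes. The background is 7.15% of 32851 mouse promoter windows of the same length (windows of chromosome 18 not used here), and 10.2% of the 14253 windows with at least 55% G and C; the Bmi1, Commd3 and Dnajc1 windows hold 66.3%, 76.0% and 56.7%. GC boxes, held by 35.7% of all windows, numbered 6 in Bmi1, 4 in Commd3, 2 in Dnajc1 and 8 in Pip4k2a, whose window holds 79.7% G and C. Dnajc1 carried 2 ETS matches, a motif of 8.86% of windows. None of the 4 windows held CCAAT (37.4% of windows) or TATAAA (13.6%). These matches are letters in a window and say nothing about binding.

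Library totals ran from 18292636 to 25732049 counts, and levels are given as CPM, counts relative to the library total, scaled with TMM factors, which correct for composition. The model was edgeR's quasi-likelihood test on all 12 libraries, and called genes are those with an adjusted p (Benjamini-Hochberg, over 15334 tested genes) under 0.05. The third ME library stood apart from the other ME libraries, with a mean chi-square per gene of 32.3 and 35.2 against them, where WT replicate pairs gave values such as 7.08 and 7.51. Normal marrow was a mixture of lineages. Summed over the fixed marker lists, erythroid genes (9 of 9 in the table) ran from 33515 to 43513 CPM in WT and reached at most 33.01 CPM in any leukemia library, with Epb42 at 0 in MA9 and ME and Slc4a1 at 0 in ME. For the 10 mature neutrophil genes the sum was 61170 to 64229 CPM in WT, against 5108 to 5335 in BN1 libraries and 583 to 648 in those of the MLL fusions. The 9 B cell genes summed to 1113 to 1264 CPM in WT and at most 20.2 in any leukemia library, with Ms4a1 at 0 in MA9 and ME. The 8 T and NK cell genes ran from 255 to 275 CPM in WT and from 141 to 147 CPM in BN1, while MA9 held 22.1 to 26.3 and ME 6.94 to 9.11. Primary granule genes such as Mpo and Elane (5 of 5) ran the other way, from 1516 to 1615 CPM in WT against 10992 to 21912 in the leukemias. Monocyte genes (6 of 6) summed to 2386 to 2749 CPM in WT and 6550 to 6902 CPM in BN1, and MA9 (2631 to 2883) and ME (3427 to 3763) lay in between or overlapped WT. Stem and early progenitor genes (7 of 7) summed to 133 to 141 CPM in WT and 128 to 130 CPM in BN1, with 265 to 277 for MA9 and 188 to 211 for ME. Not all of them followed the sum: Mecom was at 0 in BN1 and MA9, and Procr at 0 in ME. The leukocyte genes Ptprc (CD45 itself, the sorted antigen), Spi1, Coro1a and Laptm5 summed to at least 2855 CPM in every library. Their sum was higher in WT, at 4821.1 to 4916.5 CPM, than in BN1 (2855 to 3003), MA9 (3476 to 3499) or ME (3343 to 3631). These shifts go with every comparison against WT below, and their part in the results was not tested. In bulk RNA, fewer cells of a type and less RNA per cell cannot be told apart.

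Bmi1 was higher in all 3 leukemias than in normal marrow. Its level was 26.4, 23.1 and 25.9 CPM in the 3 WT libraries, 44.3, 48.7 and 41.0 CPM in BN1, 35.97, 38.8 and 35.7 CPM in MA9, and 38.3, 40.7 and 40.6 CPM in ME. Every leukemia library lay above every WT library, the BN1 libraries lay above all others, and MA9 and ME overlapped. WT averaged 25.1 ± 1.75 CPM, BN1 44.7 ± 3.86, MA9 36.8 ± 1.73 and ME 39.9 ± 1.35 (SD, n = 3). Bmi1 was 1.77-fold higher in BN1 than in WT (log2 fold change 0.83 ± 0.07, approximate SE, edgeR adjusted p = 5.4e-11). It was 1.47-fold higher in MA9 (0.55 ± 0.08, edgeR adjusted p = 1.8e-07) and 1.58-fold higher in ME (0.66 ± 0.08, edgeR adjusted p = 6.2e-09). These sizes are ordinary for these comparisons. An absolute log2 change larger than that of Bmi1 was seen in 45.1% of tested genes in BN1, 60.2% in MA9 and 53.0% in ME.

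Between leukemias the differences in Bmi1 were smaller, and not every pair was told apart. BN1 was 1.21-fold higher than MA9 (log2 0.27, 95% interval 0.13 to 0.42, edgeR adjusted p = 0.0012). BN1 was 1.12-fold higher than ME (0.16, interval 0.02 to 0.31, edgeR adjusted p = 0.045), a call that was lost in 9 of 20 alternative settings, where the adjusted p reached 0.24 without the second BN1 library. MA9 and ME were not told apart (-0.11, interval -0.26 to 0.03, edgeR adjusted p = 0.23).

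Commd3, directly upstream of Bmi1, was also higher in every leukemia. It measured 35.4, 39.1 and 37.2 CPM in WT, 59.3, 57.3 and 63.6 CPM in BN1, 43.4, 44.2 and 47.7 CPM in MA9, and 54.3, 50.1 and 52.9 CPM in ME. The 4 groups did not overlap and stood in the order WT, MA9, ME, BN1, which is also the order of the Bmi1 means. Commd3 was 1.62-fold higher in BN1 (log2 0.69 ± 0.06), 1.21-fold higher in MA9 (0.28 ± 0.07) and 1.41-fold higher in ME (0.49 ± 0.06), with edgeR adjusted p of 9.2e-11, 0.00035 and 8.5e-08. BN1 exceeded MA9 by 0.41 and ME by 0.20 on the log2 scale, and MA9 was below ME by 0.22 (edgeR adjusted p = 1.2e-06, 0.0061 and 0.0066). Per kb of exon, Commd3 was several times more abundant than Bmi1 in every group, with a Commd3 to Bmi1 ratio of 5.74 ± 0.69 for WT, 5.23 ± 0.73 for BN1, 4.73 ± 0.39 for MA9 and 5.08 ± 0.36 for ME (SD, n = 3). Exact permutation tests (two-sided) of this ratio gave p = 0.4, 0.1 and 0.2 for BN1, MA9 and ME against WT, where 3 against 3 cannot go below 0.1.

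Dnajc1 was the third gene higher in every leukemia, and here ME rather than BN1 had the highest mean. Its level was 24.6, 27.6 and 23.9 CPM in WT, 39.8, 38.1 and 43.0 CPM in BN1, 37.7, 38.0 and 37.5 CPM in MA9, and 48.1, 51.9 and 40.4 CPM in ME. All leukemia libraries lay above WT, and the third ME library fell within the BN1 range. Dnajc1 was 1.59-fold higher in BN1 (log2 0.67 ± 0.08), 1.49-fold in MA9 (0.57 ± 0.08) and 1.85-fold in ME (0.89 ± 0.08), with edgeR adjusted p of 2.2e-08, 4.3e-07 and 9.3e-11. Without the third ME library the ME change was 0.99. Dnajc1 was lower in MA9 than in ME (-0.31, edgeR adjusted p = 0.0016) and lower in BN1 than in ME (-0.22, edgeR adjusted p = 0.015). The latter call was lost when the second BN1, the first ME or the second ME library was left out (adjusted p = 0.083, 0.050 and 0.16). BN1 and MA9 were not told apart in Dnajc1 (0.10, 95% interval -0.06 to 0.26, edgeR adjusted p = 0.27).

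**Figure D1:**
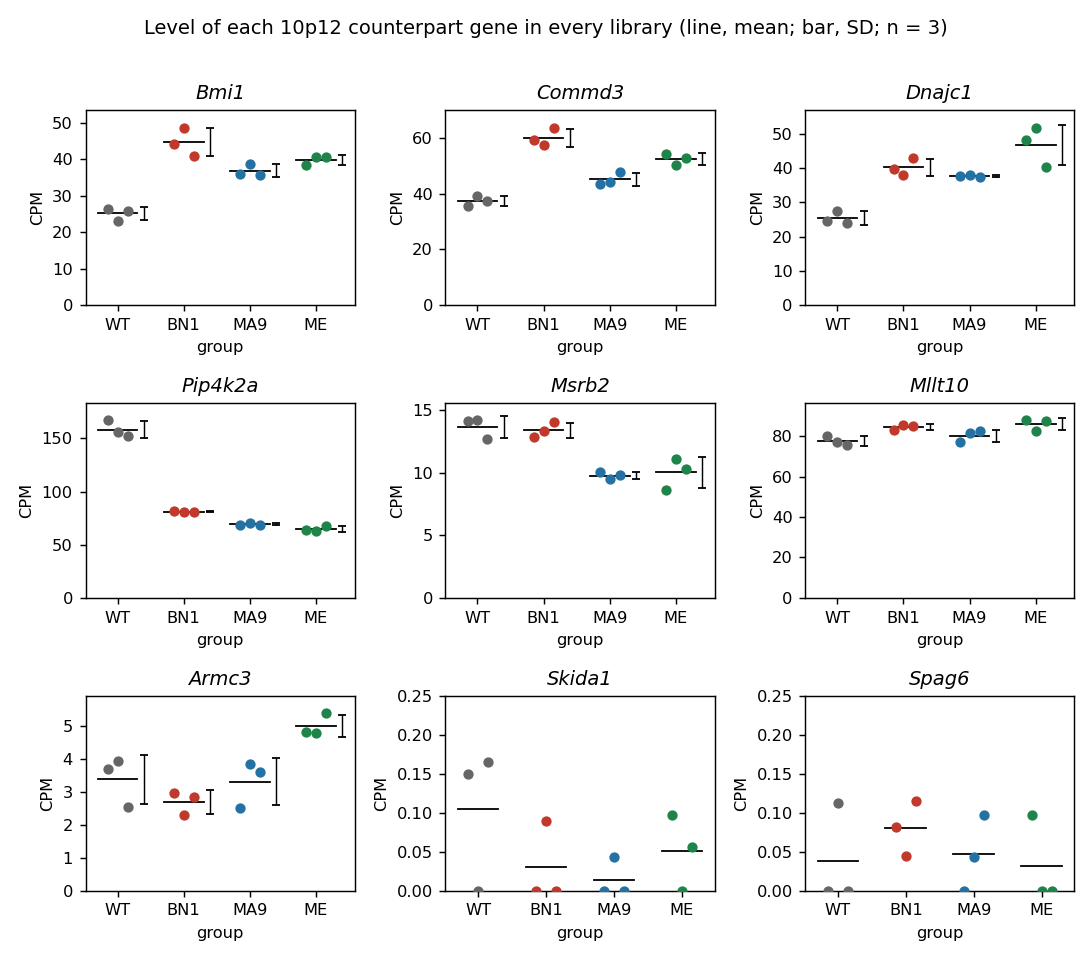
Level of each of the 9 genes in every library (y axis, TMM-scaled CPM, linear from 0, with a different range in each panel) by group (x axis). Points are libraries, lines are means of 3, and bars are SD, left out for Skida1 and Spag6, which had at most 6 counts in a group. Bmi1, Commd3 and Dnajc1 lie higher in every leukemia library than in every WT library, and Pip4k2a lies lower, at 63.0 to 81.7 CPM against 152 to 167.

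Pip4k2a went the opposite way from its neighbours. The 3 WT libraries held 167, 156 and 152 CPM. BN1 held 81.7, 80.9 and 81.1 CPM, MA9 68.6, 70.8 and 68.8 CPM, and ME 64.1, 63.0 and 68.1 CPM. No leukemia library came near WT, and BN1 was above every MA9 and ME library. Pip4k2a was 1.95-fold lower in BN1 (log2 -0.96 ± 0.05), 2.28-fold lower in MA9 (-1.19 ± 0.05) and 2.44-fold lower in ME (-1.28 ± 0.05), with edgeR adjusted p of 2.6e-16, 2.9e-18 and 6.4e-19. BN1 exceeded MA9 by 0.23 and ME by 0.32 on the log2 scale (edgeR adjusted p = 0.00030 and 3.7e-06). MA9 and ME were not told apart in Pip4k2a (0.09, 95% interval -0.01 to 0.20, edgeR adjusted p = 0.16).

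Msrb2 separated the MLL fusions from both WT and BN1. It measured 14.1, 14.2 and 12.7 CPM in WT and 12.9, 13.3 and 14.1 CPM in BN1, ranges that overlap. MA9 measured 10.05, 9.49 and 9.82 CPM and ME 8.66, 11.1 and 10.3 CPM, all below every WT and BN1 library. Msrb2 was 1.40-fold lower in MA9 (log2 -0.48 ± 0.11, edgeR adjusted p = 0.00028) and 1.36-fold lower in ME (-0.45 ± 0.11, edgeR adjusted p = 0.00070) than in WT. In BN1 its difference from WT was -0.03 with a 95% interval of -0.25 to 0.19 (edgeR adjusted p = 0.82). The direct comparisons put BN1 above MA9 by 0.46 and above ME by 0.42 (edgeR adjusted p = 0.00057 and 0.0015).

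Mllt10 varied least among the 7 tested genes. WT averaged 77.6 ± 2.34 CPM, BN1 84.4 ± 1.42, MA9 80.2 ± 2.96 and ME 85.99 ± 2.84 (SD, n = 3). The WT libraries held 80.2, 77.1 and 75.6 CPM, those of BN1 82.7, 85.3 and 85.0 CPM, those of MA9 76.8, 81.6 and 82.3 CPM, and those of ME 87.7, 82.7 and 87.6 CPM. WT overlapped MA9 but neither BN1 nor ME. The log2 differences from WT were 0.12 in BN1 and 0.15 in ME (edgeR adjusted p = 0.034 and 0.011), and 0.05 in MA9 (edgeR adjusted p = 0.40). Both calls were lost with DESeq2 (adjusted p = 0.21 in BN1 and 0.12 in ME) and with its size factors (0.21 and 0.12), and also without the third WT library (0.11 and 0.051). The BN1 call was further lost without the second WT library (0.073), without the third BN1 library (0.063) and with a stricter count filter (0.053). No pair of leukemias was told apart in Mllt10.

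Armc3 was low and highest in ME. It measured 3.69, 3.94 and 2.54 CPM in WT, 2.96, 2.29 and 2.83 CPM in BN1, 2.51, 3.84 and 3.60 CPM in MA9, and 4.84, 4.81 and 5.39 CPM in ME, from 190 to 303 counts over a group. Each ME library lay above each library of the other groups. Armc3 was higher in ME than in WT by 0.56 ± 0.19 on the log2 scale (edgeR adjusted p = 0.0098), a call lost without the third WT library (0.39, adjusted p = 0.081). It was lower in BN1 than in ME (-0.89 ± 0.19, edgeR adjusted p = 0.00020). MA9 was also lower than ME (-0.58 ± 0.19, edgeR adjusted p = 0.014), a call lost without the first MA9 library (-0.43, adjusted p = 0.10). Armc3 in BN1 against WT was not called (-0.33, interval -0.74 to 0.09, edgeR adjusted p = 0.14), but it was called lower without the third WT library (-0.49, adjusted p = 0.038). The difference of MA9 from WT was -0.03 (interval -0.44 to 0.39).

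Skida1 and Spag6 were near or under the limit of detection in every group and did not pass the count filter. Over the 3 libraries of each group, Skida1 had 6 counts in WT, and 2, 1 and 3 in the BN1, MA9 and ME leukemias. Spag6 had 2 counts over WT, 6 over BN1, 3 over MA9 and 2 over ME. The floor used here, 3 counts over a group, corresponds to a level between 0.0413 CPM (BN1) and 0.0536 CPM (WT). A difference between groups was not detectable at this depth for either gene. Spag6l, a related gene on another chromosome, was also low, with 3 counts over WT, 33 over BN1, 8 over MA9 and 13 over ME.

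Of the 7 tested genes, 4 were called higher and 1 lower in BN1, where 79.2% of all tested genes were called (38.4% higher and 40.8% lower). In MA9 3 were higher and 2 lower, beside 80.1% of all tested genes (39.3% higher, 40.8% lower). In ME 5 were higher and 2 lower, beside 79.2% (39.0% higher, 40.2% lower). The shares of 5, 5 and 7 out of 7 are thus to be read against a background in which most genes changed. Bmi1, Commd3 and Dnajc1 were called higher in all 3 leukemias, as were 25.3% of tested genes. Pip4k2a was called lower in all 3, as were 29.2%. These 3 comparisons share the WT libraries. Without any single library, the number called was 4 to 5 in BN1, 5 in MA9 and 5 to 7 in ME. The median log2 change of the 7 genes was 0.12 in BN1, 0.05 in MA9 and 0.49 in ME, beside -0.01 for all tested genes in each comparison.

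Between leukemias, 4 of the 7 genes (Bmi1, Commd3, Pip4k2a and Msrb2) were higher in BN1 than in MA9 and none lower, where 67.7% of tested genes were called (32.8% higher, 34.9% lower). The same 4 were higher in BN1 than in ME, with Dnajc1 and Armc3 lower, beside 64.7% of tested genes (31.8% higher, 33.0% lower). Between MA9 and ME none was higher and 3 were lower in MA9 (Commd3, Dnajc1 and Armc3), beside 40.6% (20.2% higher, 20.4% lower). Against the mean of both MLL fusions, BN1 had 4 of the 7 higher and Armc3 lower (Bmi1 by 0.22 and Commd3 by 0.31 on the log2 scale, edgeR adjusted p = 0.0022 and 9.3e-06), where 69.0% of tested genes were called (34.1% higher, 34.9% lower).

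**Figure D2:**
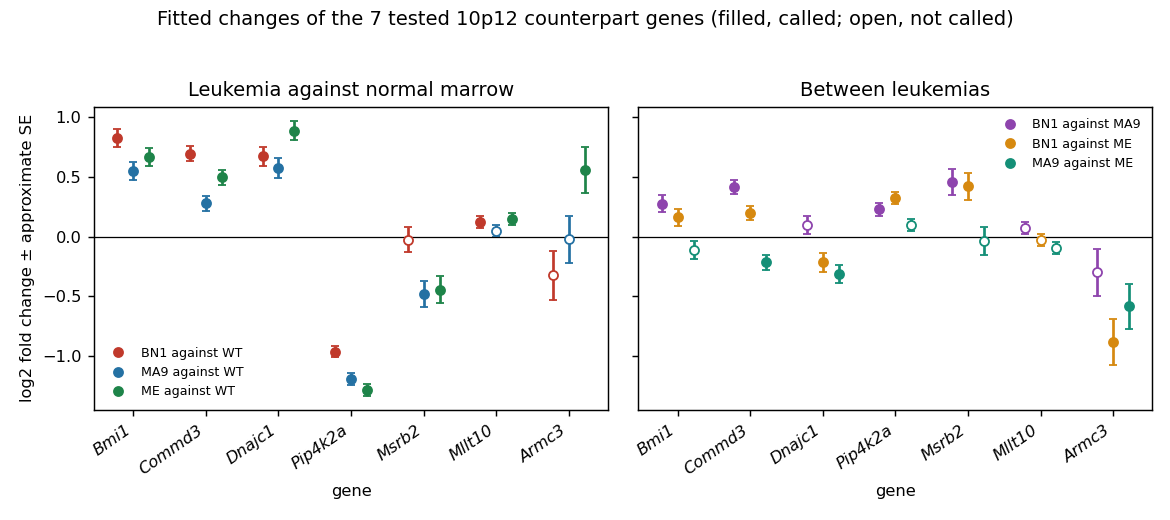
Log2 fold changes (y axis) of the 7 tested genes (x axis) in each leukemia against WT (left) and between leukemias (right). Points are edgeR estimates with approximate SE, filled when called. Bmi1, Commd3 and Dnajc1 stand above 0 and Pip4k2a below it in all 3 comparisons with WT, and the BN1 against MA9 values are at or under 0.46.

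Levels of different genes can be compared only per length. On the scale of CPM per kb of exon, the order in WT was Pip4k2a (45.6 ± 2.20), Commd3 (38.8 ± 1.93), Mllt10 (14.9 ± 0.45), Msrb2 (11.4 ± 0.72), Bmi1 (6.79 ± 0.47), Dnajc1 (2.95 ± 0.23) and Armc3 (1.20 ± 0.27; all SD, n = 3). In each leukemia Commd3 ranked above Pip4k2a, at 62.6 ± 3.38 against 23.4 ± 0.12 in BN1, 47.0 ± 2.36 against 19.96 ± 0.34 in MA9 and 54.6 ± 2.23 against 18.7 ± 0.76 in ME. Bmi1 moved past Msrb2 in the MLL fusions, at 9.96 ± 0.47 against 8.18 ± 0.23 in MA9 and 10.8 ± 0.37 against 8.39 ± 1.05 in ME. In BN1 the levels of Bmi1 and Msrb2 (12.1 ± 1.04 and 11.2 ± 0.50) did not differ beyond their spread. Dnajc1 and Armc3 kept the lowest places among the tested genes in all 4 groups.

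The 7 tested genes did not share one pattern over the libraries. The genes most like Bmi1 over the 12 libraries, by Pearson correlation of log2 CPM, were Zkscan8 (0.989), a zinc finger gene, Tmed2 (0.988), a gene of vesicle transport between endoplasmic reticulum and Golgi, Rars2 (0.987), a mitochondrial arginyl-tRNA synthetase, Sypl (0.986) and Mut (0.985), the methylmalonyl-CoA mutase. None of these 5 is on the same stretch of chromosome 2. Commd3 correlated with Bmi1 at 0.869, and 9.14% of the genes searched were more like Bmi1 than Commd3 was. The searches for like genes covered tested genes and left out symbols of the Gm, Rik, -ps and LOC kinds. Within the 9 leukemia libraries that correlation was 0.670. Dnajc1 correlated with Bmi1 at 0.821 over 12 libraries and at 0.02 within the leukemias, and Pip4k2a at -0.839 over 12 libraries and 0.652 within the leukemias. All of these are descriptions over libraries that share groups and depth. Pip4k2a was most like Cap1 (0.997), an actin regulator, and Cd22 (0.995), a B cell surface receptor. Commd3 was most like Actn4 (0.977), Dnajc1 like Adck2 (0.981), Msrb2 like Kctd10 (0.955), Armc3 like Hunk (0.947) and Mllt10 like Golph3l (0.916). Hunk held 9, 1, 13 and 75 counts over WT, BN1, MA9 and ME. Its likeness to Armc3 therefore rests mostly on ME, with values near the floor elsewhere.

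Around the 9 genes, the table held 26 other genes within 1 Mb on either side, of which 7 could be tested. In BN1 1 of these was higher and 4 lower, in MA9 2 and 2, and in ME 1 and 3, beside 79.2%, 80.1% and 79.2% of all tested genes called, split about evenly by direction. Nebl (chr2:17342673-17734949), a nebulin-family gene, had the largest rise among them. Nebl averaged 0.945 ± 0.05 CPM over the WT libraries and rose to 29.0 ± 1.56 (BN1), 5.49 ± 0.29 (MA9) and 2.36 ± 0.47 (ME; SD, n = 3), log2 changes of 4.93, 2.53 and 1.33 (edgeR adjusted p = 3.0e-21, 7.4e-13 and 2.9e-06). BN1 also exceeded MA9 (2.40) and ME (3.61) in Nebl, by far more than in Bmi1. Only the first place of BN1 was shared. Nebl was higher in MA9 than in ME (1.20, edgeR adjusted p = 1.9e-07), whereas Bmi1 did not tell these leukemias apart. Otud1 (chr2:19657731-19661279), a deubiquitinase gene on the Msrb2 side, fell from 18.8 ± 0.16 CPM to 7.30 ± 0.44, 9.65 ± 0.85 and 8.59 ± 1.80 (-1.37, -0.97 and -1.13). Etl4 (chr2:19910207-20810535), a large gene at the edge of the window that contains Gm13363, held 45 counts over WT, 12 over BN1, 128 over MA9 and 1 over ME. It was lower in BN1 (-2.25) and higher in MA9 (1.32) than in WT, and in ME it was 48.8-fold lower, with a counting interval of 8.32 to 1970.2.

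**Figure D3:**
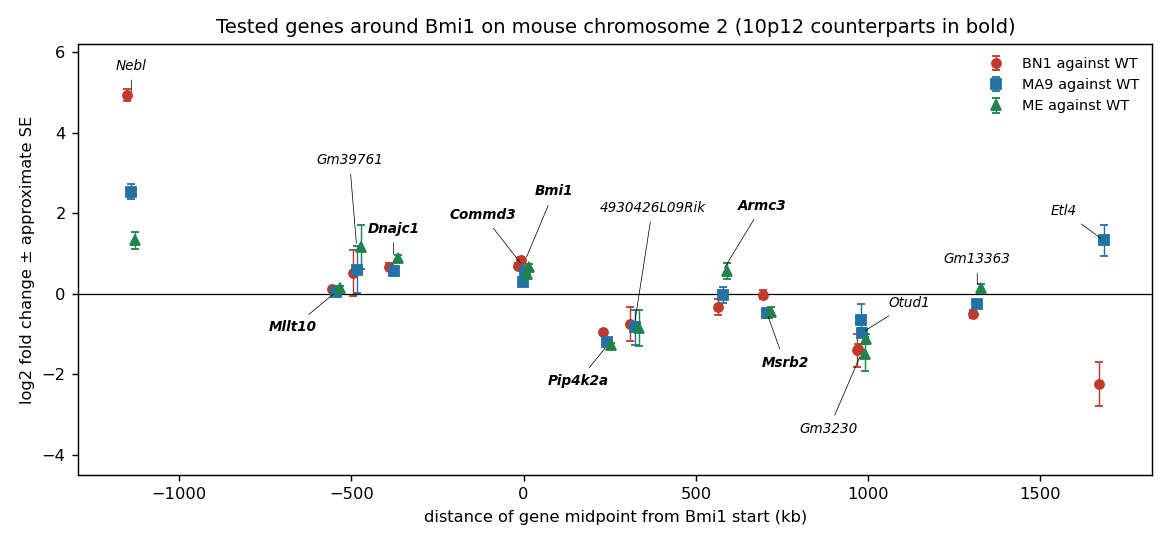
Log2 fold change against WT (y axis, with approximate SE) of the 14 tested genes around Bmi1, by the distance of the gene's midpoint from the start of Bmi1 in kb (x axis, mouse chromosome 2). Circles are BN1, squares MA9 and triangles ME, offset slightly so that they can be told apart, and Etl4 in ME, with 1 count, is not drawn. Nebl is highest in BN1 at 4.93, and Pip4k2a and Otud1 lie below 0 in all 3 leukemias.

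Bmi1 belongs to the Pcgf family, whose 6 members each define a form of Polycomb repressive complex 1. Bmi1 and its close relative Pcgf2 (Mel18) serve the canonical forms that carry Cbx proteins, and the others serve variant forms. Per kb of exon, Pcgf1 was the most abundant in WT (12.2 ± 0.72 CPM per kb) and Bmi1 (6.79 ± 0.47) and Pcgf5 (6.71 ± 0.33) did not differ beyond their spread. In BN1 Bmi1 reached 12.1 ± 1.04 beside 13.2 ± 0.31 for Pcgf1 and 10.5 ± 0.68 for Pcgf5. In ME Pcgf5 was the highest at 12.96 ± 0.67, with Bmi1 at 10.8 ± 0.37 and Pcgf1 at 10.6 ± 1.63. Of the family's summed level per kb, Bmi1 supplied 20.2 ± 1.11% in normal marrow, 29.3 ± 1.17% in BN1, 28.4 ± 1.08% in MA9 and 27.2 ± 1.58% in ME (SD, n = 3). No leukemia library overlapped WT (18.98 to 21.2%). The exact two-sided permutation p was 0.1 for each leukemia against WT, the smallest that 3 against 3 allows, and 0.5, 0.3 and 0.4 between BN1 and MA9, BN1 and ME, and MA9 and ME.

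**Figure D4:**
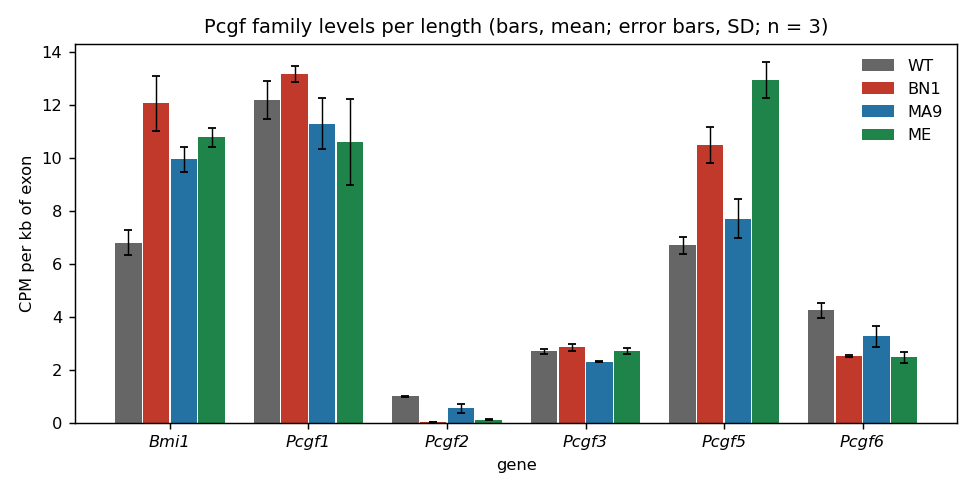
Level per kb of exon (y axis, TMM-scaled CPM per kb, from 0) of the 6 Pcgf genes (x axis) in WT, BN1, MA9 and ME. Bars are means of 3 libraries and error bars SD. Bmi1 stands at 6.79 in WT and 9.96 to 12.1 in the leukemias, while Pcgf2 stays under 1 CPM per kb in every group.

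Pcgf2 moved opposite to Bmi1. Its level was 2.82 ± 0.07 CPM over the WT libraries (158 counts) and fell to 0.0807 ± 0.03 (BN1, 6 counts), 1.55 ± 0.49 (MA9) and 0.343 ± 0.08 (ME; SD, n = 3), log2 changes of -5.00, -0.86 and -3.01 (edgeR adjusted p = 2.0e-11, 0.0047 and 7.1e-09). Pcgf5 rose in all 3 (0.64, 0.20 and 0.95) and Pcgf6 fell in all 3 (-0.74, -0.38 and -0.78). Pcgf1 was called in none (0.11, -0.11 and -0.21).

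Across the 28 listed genes of Polycomb repressive complex 1, all of which were tested, 10 were higher and 13 lower in BN1, 11 and 13 in MA9, and 10 and 14 in ME, with Bmi1 itself among the 28 and higher in each. These counts are near the shares of all tested genes called higher (38.4%, 39.3% and 39.0%) and lower (40.8%, 40.8% and 40.2%). The medians were -0.02, -0.14 and -0.21, beside -0.01 for all tested genes. The catalytic subunits moved little: Ring1 was higher by 0.16, 0.44 and 0.22, and Rnf2 (Ring1b) stood at 0.01 (not called), -0.22 and -0.38. Among the Cbx readers of H3 lysine 27 methylation, Cbx7 fell by 3.29, 2.09 and 2.75 and Cbx2 by 2.28, 1.86 and 1.77 on the log2 scale in BN1, MA9 and ME. Cbx6 fell from 43.0 ± 3.13 CPM to 0.668 ± 0.15, 7.67 ± 0.56 and 0.377 ± 0.05 (-5.98, -2.49 and -6.81). Cbx8 was called in none (-0.06, 0.01 and 0.08). The 3 Polyhomeotic genes did not share a pattern. Phc1 fell in all 3 leukemias (-0.79, -0.39 and -1.59), Phc2 was lower in BN1 (-0.29) and not called in MA9 (-0.02) or ME (0.10), and Phc3 was not called in BN1 (0.07) and lower in MA9 (-0.32) and ME (-0.22).

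Of the variant-complex genes, Bcor (0.57, 0.98 and 0.57), Kdm2b (0.32, 0.80 and 0.53), L3mbtl2 (0.51, 0.82 and 0.79) and E2f6 (0.41, 1.17 and 0.54) rose in BN1, MA9 and ME. Rybp (-0.41, -0.76 and -0.40), Usp7 (-0.24, -0.52 and -0.21) and Fbrs (-0.58, -0.55 and -0.49) fell. Scml2 set BN1 apart from the MLL fusions, with 466 counts over BN1 and 138 over WT but 4 over MA9 and 1 over ME. It was higher in BN1 than in WT (1.38) and lower in MA9 (-5.17), and in ME it was 149.7-fold lower (counting interval 26.4 to 5954.4). Auts2 had 55 counts in WT, 0 in all 3 BN1 libraries, 146 in MA9 and 12 in ME, so the MLL fusions lay on opposite sides of WT. It was at least 23.8-fold lower in BN1 than in WT (3 counts over the group as the floor), higher in MA9 (1.21) and lower in ME (-2.28). Yaf2 and Scmh1 were lower in BN1 (-0.55 and -0.30) and higher in MA9 (0.23 and 0.18) and ME (0.22 and 0.48).

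**Figure D5:**
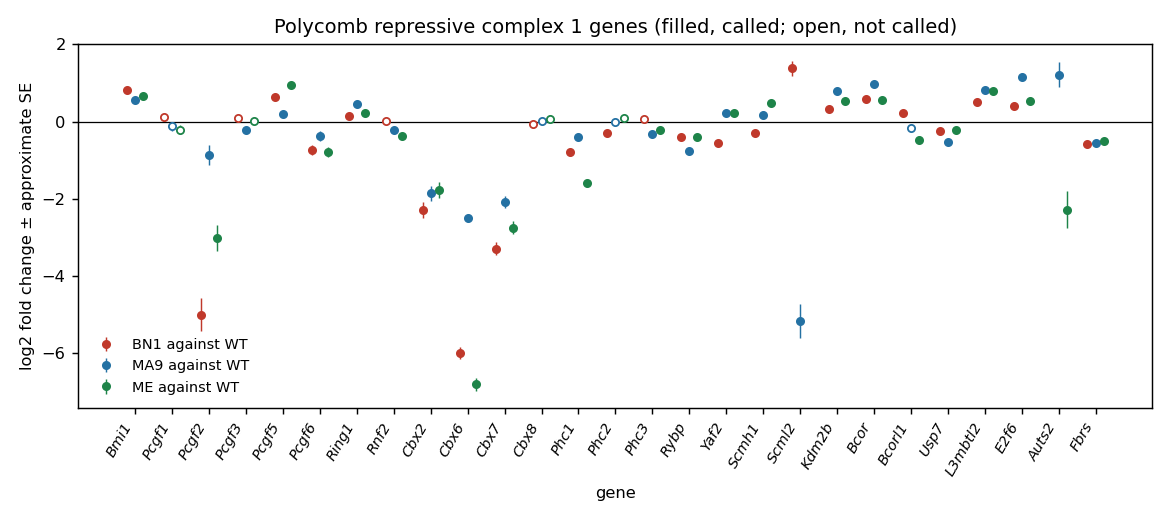
Log2 fold change against WT (y axis, with approximate SE) of 27 of the 28 Polycomb repressive complex 1 genes (x axis) in BN1, MA9 and ME, filled when called. Auts2 in BN1 (0 counts) and Scml2 in ME (1 count) are not drawn. Bmi1 lies at 0.55 to 0.83, among genes that run from well below to above 0.

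Cell cycle inhibitors of the Ink4 and Cip/Kip families included the known Bmi1 target. Of 7 listed genes 6 were tested, and 4 were higher and 2 lower in BN1, 3 and 3 in MA9, and 3 and 3 in ME (medians 1.45, -0.42 and -0.04), where 79.2%, 80.1% and 79.2% of all tested genes were called, split about evenly by direction. Cdkn2a was higher in all 3 leukemias. It had 7 counts over the WT libraries (0.129 ± 0.18 CPM), and measured 4.13 ± 0.44 CPM in BN1, 13.7 ± 0.47 in MA9 and 13.7 ± 0.53 in ME (SD, n = 3). The fitted changes were 4.97, 6.71 and 6.71 (intervals 4.26 to 5.69, 6.12 to 7.30 and 6.12 to 7.30). Their sizes are uncertain, because the WT libraries held only 0, 1 and 6 counts. Cdkn2a passed the count filter through the leukemias alone. Its higher calls against WT, which are among those counted above, therefore carry no weight. The counts themselves did not overlap, with at least 97 in every leukemia library. In Cdkn2a, BN1 was below MA9 by 1.73 and below ME by 1.74. Cdkn2b, its neighbour, was not tested, with 4, 22, 27 and 12 counts. Cdkn1c rose by 4.59, 5.81 and 6.48 and Cdkn1a by 1.88, 0.69 and 1.37, while Cdkn2d (-2.08, -1.83 and -1.45) and Cdkn1b (-0.80, -1.54 and -1.63) fell. Cdkn2c went up in BN1 (1.02) and down in MA9 (-2.35) and ME (-1.78). The table counts whole genes, so the p16Ink4a and p19Arf transcripts of Cdkn2a are not separated.

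The relatives of the other genes were counted in the same way, each time without the gene itself. Most genes of the complex that Commd3 belongs to were higher. Of 15 tested COMMD and CCC complex genes other than Commd3, 13 were higher and 1 lower in BN1, 13 and 1 in MA9, and 12 and 1 in ME (medians 0.50, 0.45 and 0.49, beside -0.01 for all tested genes), against the 38.4%, 39.3% and 39.0% of all tested genes called higher. Commd10 rose by 1.54, 1.63 and 1.31, Commd5 by 1.17, 1.23 and 1.15, and the scaffold genes Ccdc93 (1.11, 0.70 and 0.80) and Ccdc22 (0.71, 1.24 and 1.16) rose with them, while Commd8 fell (-0.31, -0.26 and -0.39). Of 9 endoplasmic reticulum J protein and chaperone genes other than Dnajc1, none was lower in any leukemia, and 9, 8 and 9 were higher in BN1, MA9 and ME (medians 0.98, 0.93 and 1.20). Of all tested genes, 38.4%, 39.3% and 39.0% were called higher, with a median of -0.01 in each comparison. Hyou1 rose by 2.12, 1.53 and 1.72 and the chaperone Hspa5 (BiP) by 1.08, 1.28 and 1.65. Dnajc10, a J protein with reductase activity, rose by 0.64, 2.97 and 2.01. Dnajb9 in MA9 was the exception (0.16, edgeR adjusted p = 0.12).

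Pip4k2a also had relatives that were lower. Of 6 tested phosphatidylinositol phosphate kinase genes other than Pip4k2a, none was higher in any leukemia, and 5, 4 and 5 were lower in BN1, MA9 and ME (medians -0.27, -0.40 and -0.39), beside 40.8%, 40.8% and 40.2% of all tested genes called lower. Pip4k2c fell by 0.64, 0.53 and 0.68, and Pip4k2b stood at -0.56, -0.03 (not called) and -0.19, all smaller than the changes of Pip4k2a. Pip5k1b was called in none (-0.01, 0.04 and -0.09). Among the other methionine sulfoxide reductase genes, Msra (-1.20, -0.94 and -0.77) and Msrb1 (-0.49, -0.85 and -0.40) fell in all 3 leukemias, in BN1 too, where Msrb2 was not called. Of 8 genes listed beside Mllt10 (Dot1l, Mllt6, Mllt1, Mllt3, Aff1, Aff4, Tcf3 and Picalm), 2 were higher and 4 lower in BN1, 1 and 6 in MA9, and 1 and 6 in ME. Their medians were -0.34, -0.99 and -1.23, where 40.8%, 40.8% and 40.2% of all tested genes were called lower. The list is wider than the Dot1l complex and the fusion partners of Mllt10. It includes Tcf3 (-0.66, -1.31 and -1.46), which is in each of the lower counts. Dot1l stood at 0.25 (called), 0.10 and 0.14 (not called). The AF17 gene Mllt6, the closest relative of Mllt10, fell from 76.0 ± 3.81 CPM to 11.9 ± 1.48, 12.9 ± 0.63 and 5.32 ± 0.999 (-2.67, -2.56 and -3.82), and Picalm, a partner of Mllt10 in a leukemia fusion, fell by 1.96, 2.14 and 1.81 on the log2 scale. Mllt3, the mouse gene of the AF9 partner, was lower in all 3 (-4.30, -3.64 and -2.96). Mllt1, the mouse gene of the ENL partner, was not called in BN1 (0.07) and was higher in MA9 (0.64) and ME (0.54), and Aff4 was higher in BN1 (0.16) and lower in MA9 (-0.67) and ME (-0.99).

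Of 7 listed Ski and Dach domain genes, Skida1 included, 3 were tested: Skil fell (-0.76, -1.70 and -1.36), Ski rose in MA9 (0.53) and ME (0.34), and Dach1 had 0 counts in BN1 against 2179 in WT, at least 942-fold lower. Dach1 in MA9 and ME stood at -0.21 (called) and -0.02 (not called). Besides Armc3, 4 of the listed axoneme and armadillo repeat genes passed the filter, with 1 higher and 2 lower in BN1, 0 and 1 in MA9, and 0 and 2 in ME, beside 79.2%, 80.1% and 79.2% of all tested genes called. The gene higher in BN1 was Armc2, with 59 counts over BN1 and 14, 8 and 1 over WT, MA9 and ME. Armc2 passed the filter through BN1 alone, so its higher call there carries no weight. Armc9 fell in all 3 (-1.05, -1.15 and -1.15).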

How the data were processed

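Per the submitters' processing notes, the authors used HISAT2, featureCounts, DESeq2 and the mm10 build (the sources used here do not give versions, annotation, strand use or how multiply matching reads were treated). The deposited values were raw counts per gene for 12 libraries, used as given, and every row carried a gene name. Positions, promoter windows and exon lengths came from RefSeq GRCm38.p6 and GENCODE M21 (RefSeq positions matched 90.3% of gene names).

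Genes were filtered with filterByExpr and scaled by TMM (factors 0.928 to 1.051), and 4 groups of 3 libraries were fitted in edgeR 4.0.16 (R 4.3.3) with robust quasi-likelihood dispersion and no replicate block, giving a biological coefficient of variation of 5.87%. Benjamini-Hochberg adjustment ran over all 15334 tested genes in each of 7 comparisons. Fold changes are given on the log2 scale, with SE derived from the test statistic. Correlations used log2 CPM with a prior count of 2. The fitting code was checked on simulated counts with 200 genes changed in BN1 alone, far fewer than were called here. In BN1 against WT it recovered 74% of 2-fold and 92% of 4-fold changes, with 11 false calls among 161. The simulation did not test the scaling where most genes change.

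Alternatives were DESeq2 1.42.0, limma-voom (limma 3.58.1), RLE and upper-quartile scaling, no filter, a filter of 1 CPM in 3 libraries, a replicate block, fits on only the groups compared, and leaving out each library. All 9 genes are named, with all tested neighbours within 1 Mb considered, the 5 genes most like Bmi1 and the closest to each other gene, and relatives from hand-written lists. The genes and lists were chosen with earlier results of these data known. No list was tested for enrichment. Values of a few listed genes are not reported here. The count precision at these depths, from 1410 to 8885 counts over the WT libraries for Bmi1 to Pip4k2a, covers counting error only.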

Additional observations from a re-analysis of the deposited data

How the results depend on the processing

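The 20 alternative settings gave 980 values for the 7 genes in 7 comparisons. Of these, 944 kept the direction and the side of the threshold, 23 lost the call, 2 gained it and 11 changed sign. Bmi1, Commd3, Dnajc1 and Pip4k2a against WT kept direction and call in 240 of 240. Sign changes touched differences that were not called under either setting. Msrb2 in BN1 against WT gave 0.013 with upper-quartile scaling and -0.076 to 0.0084 when a library was left out (0.0031 without WT replicate 1, 0.0015 without WT replicate 2, 0.0084 without BN1 replicate 1). Armc3 in MA9 against WT gave 0.048 with upper-quartile scaling, and -0.20 to 0.14 when a library was left out (0.043 and 0.089 without WT replicates 1 and 2, 0.14 without MA9 replicate 1). Mllt10 in MA9 against WT gave -0.0088 with DESeq2 and -0.0087 with RLE scaling, and 0.12 (edgeR adjusted p = 0.033) with upper-quartile scaling. Msrb2 in MA9 against ME gave -0.14 to 0.045 when a library was left out, the latter without ME replicate 2. The cause was not tested. All 560 counts of called genes stayed within 1.5 times their main value, and no scaling moved the median of all genes by 0.1 or more on the log2 scale.

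Libraries with the same replicate number did not deviate together: correlations of their deviations ran from -0.08 to 0.06 over 18 pairs, against -0.10 to 0.09 over 36 pairs with different numbers. The numbers were not used as a pairing, though a small effect shared by libraries of the same number would not show in these correlations. With a replicate block, 12042 genes were called in BN1 against WT, 12162 in MA9 and 12014 in ME, with 5, 5 and 7 of the 7 genes, and Bmi1 in BN1 against ME stood at 0.16 (edgeR adjusted p = 0.056). Depth leaves Skida1 and Spag6 unresolved.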
